A study of Homo sapiens with 2 samples.

Results

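Genes of 4 families of chromatin enzymes were followed: histone lysine demethylases (KDM), lysine methyltransferases (KMT and SETD), zinc-dependent histone deacetylases (HDAC) and sirtuins (SIRT). Members were the probe sets whose single platform gene symbol begins with KDM, KMT, SETD, HDAC or SIRT followed by a digit, or with SETDB. The rule used names only and found 59 of the 33297 probe sets, which read 55 of the 18417 named genes: 18 demethylases, 19 methyltransferases, 11 deacetylases and 7 sirtuins. The RNA came from H1299, an established human lung carcinoma line with no p53 of its own. One group received p53 and the other was a negative control, with 1 array each. The sources used here do not say how p53 was supplied, for how long, or what the control received. With 1 array per group no p-value and no error between replicates can be given, and all values hold for these 2 arrays alone. RNA was read in bulk, so that a change in all cells and a larger change in some of them cannot be told apart.

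Acetyl and methyl groups on histone lysines are written by acetyltransferases and methyltransferases and removed by deacetylases and demethylases. Methylation acts by position: at H3K4 it marks promoters and enhancers in use, at H3K36 the bodies of transcribed genes, and at H3K9, H3K27 and H4K20 mostly silent or compacted chromatin. Most demethylases carry a JmjC domain that uses iron, oxygen and 2-oxoglutarate, whereas the KDM1 enzymes use a flavin. Classical deacetylases need zinc and sirtuins need NAD. Several of these enzymes also act on p53 itself, among them SIRT1, HDAC1, KDM1A, SETD7 and KMT5A, which remove or add groups on its lysines.

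CDKN1A and MDM2, known p53 targets, checked the labels. CDKN1A, the gene of the p21 cell cycle inhibitor, had a log2 intensity of 12.66 with p53, against 9.18 in the control. MDM2, the gene of the ubiquitin ligase that degrades p53, had 13.59 with p53, against 10.87 in the control. Both therefore went the way the labels say. Of 7 epithelial and mesenchymal markers of a carcinoma line, KRT8, KRT18, KRT7 and VIM lay above the filter described next, while EPCAM, CDH1 and KRT19 lay below it. Their summed level was 14.38 with p53 and 14.43 in the control on the log2 scale. The lung markers NKX2-1, SFTPB and SFTPC and the 3 endothelial markers lay below the filter in both arrays. So did PTPRC, CD3E and CD14 of blood cells and COL1A2, DCN and LUM of fibroblasts. SCGB1A1 of airway cells, CD68 of blood cells and COL1A1 of fibroblasts passed the filter. Of these SCGB1A1 alone was past 2-fold, with 8.53 in the p53 array and 7.09 in the control array.

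A gene was kept where the higher of its 2 values reached 7.38, the median of all probe sets, and was called higher or lower where the arrays differed at least 2-fold, which is a size limit with no test behind it. Of the 55 member genes 51 were kept. With p53, 6 were at least 2-fold higher and 1 was at least 2-fold lower, and 44 were neither. The 6 are 11.8% of the kept members, where 8.21% of the 11436 kept genes were called higher. The 1 is 1.96%, where 5.79% of all kept genes were called lower. These shares rest on few genes and are not far from those of all genes. The higher genes were the demethylase genes KDM4B, KDM2B and KDM7A, the sirtuin genes SIRT2 and SIRT4 and the methyltransferase gene KMT2C, and the lower gene was the demethylase gene KDM4D. At a threshold of 1.5-fold HDAC2, HDAC7 and SETD7 joined the lower side and no gene joined the higher side, so that 6 were higher and 4 lower, where 14.4% and 15.5% of all kept genes passed. The median difference over all 55 members was -0.00, beside 0.00 over all genes and -0.01 over the kept genes.

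**Figure D1:**
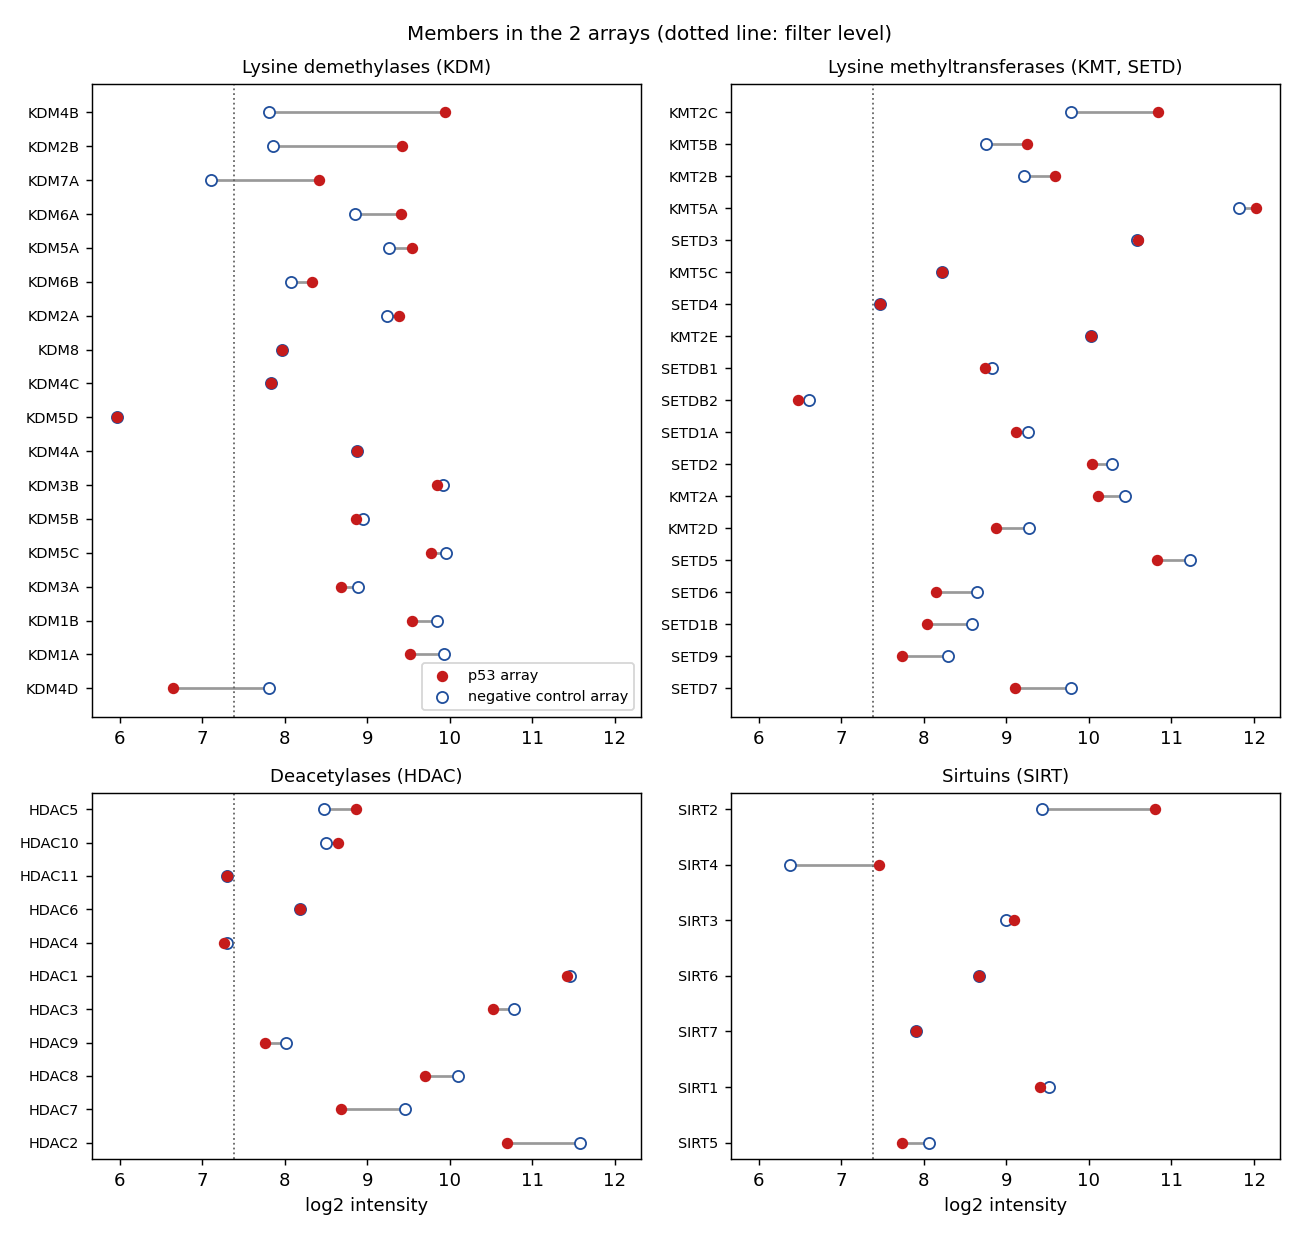
Log2 intensity of each member gene in the p53 array (filled red) and the negative control array (open blue), by enzyme class and ordered by difference, with a dotted line at the filter level of 7.38. Long bars are few: KDM4B, KDM2B, KDM7A, SIRT2, SIRT4 and KMT2C have the p53 value at least 2-fold to the right, and KDM4D has it to the left.

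The next genes short of the 2-fold line were HDAC2 (-0.89 on the log2 scale) on the lower side and KDM6A (0.55) on the higher side, and the nearest inside it were KMT2C (1.06) and KDM4D (-1.17). On the higher side no kept member therefore lay between 0.55 and 1.06. Of all kept genes 14.4% were at least 1.5-fold higher and 8.21% at least 2-fold higher, so few lay between these limits. With 51 kept members an empty interval there says little, and it does not set the called genes apart as a group. Differences of 0 to the last deposited digit were found in 9 of the 55 members (16.4%), namely KDM4A, KDM4C, KDM5D, KDM8, KMT2E, KMT5C, SETD4, SIRT7 and HDAC11. Over all genes 35.3% were equal in this way, and over the kept genes 14.6%, against 7 of the 51 kept members. The cause of equal values was not tested, and an equal value is no evidence of an unchanged transcript.

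**Figure D2:**
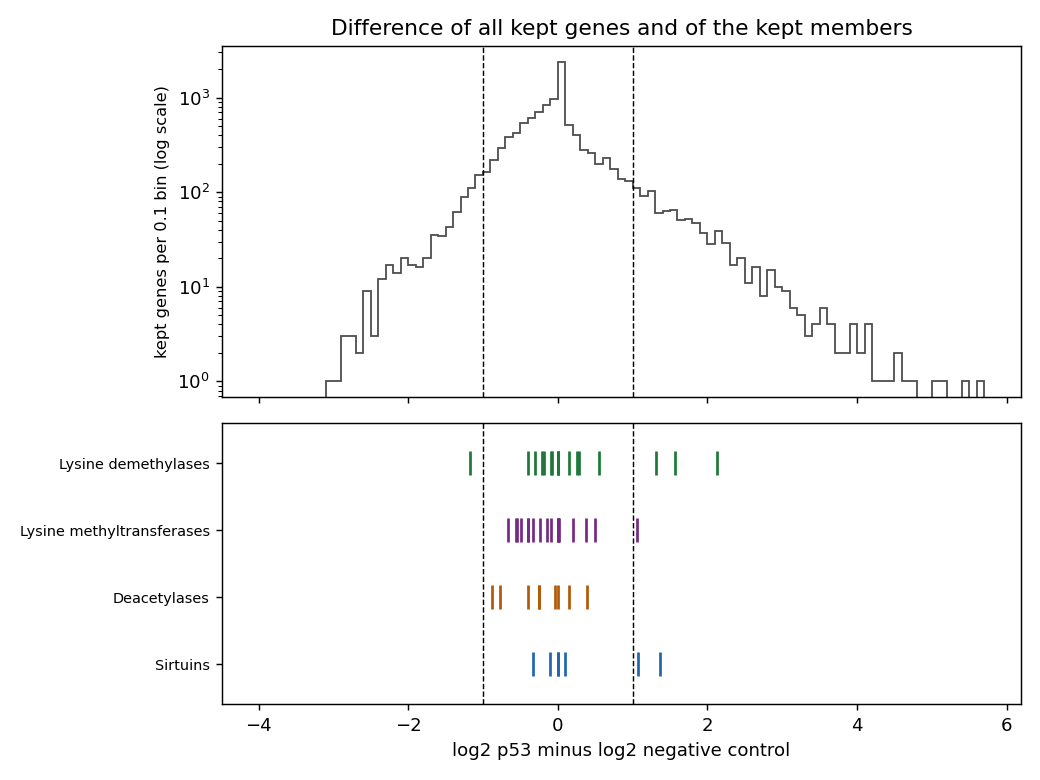
Difference in log2 intensity, p53 minus negative control, for all 11436 kept genes (upper panel, genes per 0.1 bin on a log scale) and for the kept members of each class (lower panel, 1 tick per gene), with dashed lines at 2-fold. The members lie between -1.17 and 2.13, inside the range of all kept genes, -3.01 to 5.62.

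Among the demethylases the KDM4 genes, which encode JmjC enzymes acting mainly on methylated H3K9 and, for KDM4A to KDM4C, also H3K36, differed most among themselves. KDM4B had a log2 intensity of 9.94 with p53, against 7.81 in the control, 4.37-fold higher. KDM4D had 6.64 with p53, against 7.81 in the control, 2.25-fold lower. The paralogues KDM4A, at 8.87, and KDM4C, at 7.83, each carried the same value in both arrays. KDM4B thus held the largest difference of all members and ranked 221 from the top among the 11436 kept genes, while its 3 measured paralogues were equal or lower. KDM4D passed the filter through the control array alone and was 433 from the bottom. With an offset of 32 on the linear scale its difference was -0.96, less than 2-fold.

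The windows of 250 bases before the RefSeq starts of KDM4B and KDM4D are shown because these paralogues had the largest differences in opposite directions, and that of HDAC2 because it held the one p53 decamer found among the 10 genes past 1.5-fold. They were read from RefSeq on GRCh38.p14: chr19:4968863-4969112 on the plus strand for KDM4B, chr11:94973459-94973708 on the plus strand for KDM4D and chr6:113971149-113971398 on the minus strand for HDAC2. Capitals mark matches to any of 4 motifs searched on both strands. The p53 decamer is a half-site, a part of the p53 response element and not the whole of it. The others are the CHR element TTTGAA, the E2F core GCGGGAA and the CCAAT box CCAAT.
KDM4B: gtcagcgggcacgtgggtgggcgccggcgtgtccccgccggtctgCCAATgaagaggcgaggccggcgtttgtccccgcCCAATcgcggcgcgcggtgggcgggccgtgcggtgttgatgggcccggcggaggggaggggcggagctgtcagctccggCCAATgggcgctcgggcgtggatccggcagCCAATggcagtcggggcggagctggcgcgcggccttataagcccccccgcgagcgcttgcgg
KDM4D: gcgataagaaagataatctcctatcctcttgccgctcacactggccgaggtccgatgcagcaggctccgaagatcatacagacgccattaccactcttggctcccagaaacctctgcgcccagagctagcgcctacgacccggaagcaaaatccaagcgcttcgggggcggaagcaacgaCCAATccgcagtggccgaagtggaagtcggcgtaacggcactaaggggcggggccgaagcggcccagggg
HDAC2: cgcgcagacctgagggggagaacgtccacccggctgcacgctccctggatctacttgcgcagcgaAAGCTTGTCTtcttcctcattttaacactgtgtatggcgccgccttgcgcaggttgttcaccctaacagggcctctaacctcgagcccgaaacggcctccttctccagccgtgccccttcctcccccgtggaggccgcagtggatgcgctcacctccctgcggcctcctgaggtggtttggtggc
The KDM4B window held 4 CCAAT boxes, whose first bases lie 205, 171, 92 and 62 bases before the start. The KDM4D window held 1, at 70 bases before the start. In HDAC2 the only match was a single p53 decamer, thus a half-site alone, which begins 185 bases before the start. Of all 35116 windows of this length 32% held at least 1 CCAAT box and 0.874% held 4 or more. The p53 decamer occurred in 5.57% of all windows and in 3 of the 78 windows of 52 members that RefSeq's table holds (3.85%), which belong to HDAC2, HDAC4 and HDAC9. CHR was found in 13.3% of all windows and 3 of the members' windows, of HDAC4 and SIRT4, and the E2F core in 5.52% and 6 of the members' windows, of HDAC4, HDAC6, HDAC9, KDM1B and SIRT6. Of these 4 motifs none was found in the KDM7A and KMT2C windows, and in those of KDM2B and SIRT2 CCAAT alone was found. A match is a match of letters, and 250 bases leave out most of the regulatory sequence of a gene.

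The KDM2 pair demethylates H3K36 and binds unmethylated CpG islands through a CXXC zinc finger, and KDM2B brings a variant Polycomb complex to them. KDM2B had 9.42 with p53, against 7.85 in the control, 2.96-fold higher. Its paralogue KDM2A had 9.38 with p53, against 9.23 in the control, a difference of 0.15. The pair therefore parted: only KDM2B passed 2-fold. KDM7A, which demethylates H3K9 and H3K27, had 8.41 with p53, against 7.10 in the control, 2.47-fold higher. Its control value lay below the filter, so the gene was kept through the p53 array alone.

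The KDM6 genes encode the H3K27 demethylases, which oppose Polycomb silencing, and neither passed 1.5-fold. KDM6A had 9.40 with p53, against 8.85 in the control, and KDM6B had 8.33 with p53, against 8.08 in the control. The H3K4 demethylases split into small differences of either sign. KDM1A, the flavin enzyme of the CoREST complex, had 9.52 with p53, against 9.92 in the control, and its paralogue KDM1B had 9.54 with p53, against 9.85 in the control. Of the KDM5 genes, KDM5A differed by 0.28, KDM5B by -0.08 and KDM5C by -0.18, and KDM5D lay below the filter. The H3K9 demethylase genes KDM3A and KDM3B stood at -0.21 and -0.08, and KDM8 was equal in both arrays with each of its 2 probe sets. Of the 17 kept demethylase genes 3 were called higher (17.6%, where 8.21% of all kept genes were). KDM4D alone was called lower (5.88%, where 5.79% were), and 13 were neither. These shares rest on few genes, and KDM7A and KDM4D each passed the filter through 1 array alone. The median over all 18 was 0.00.

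**Figure D3:**
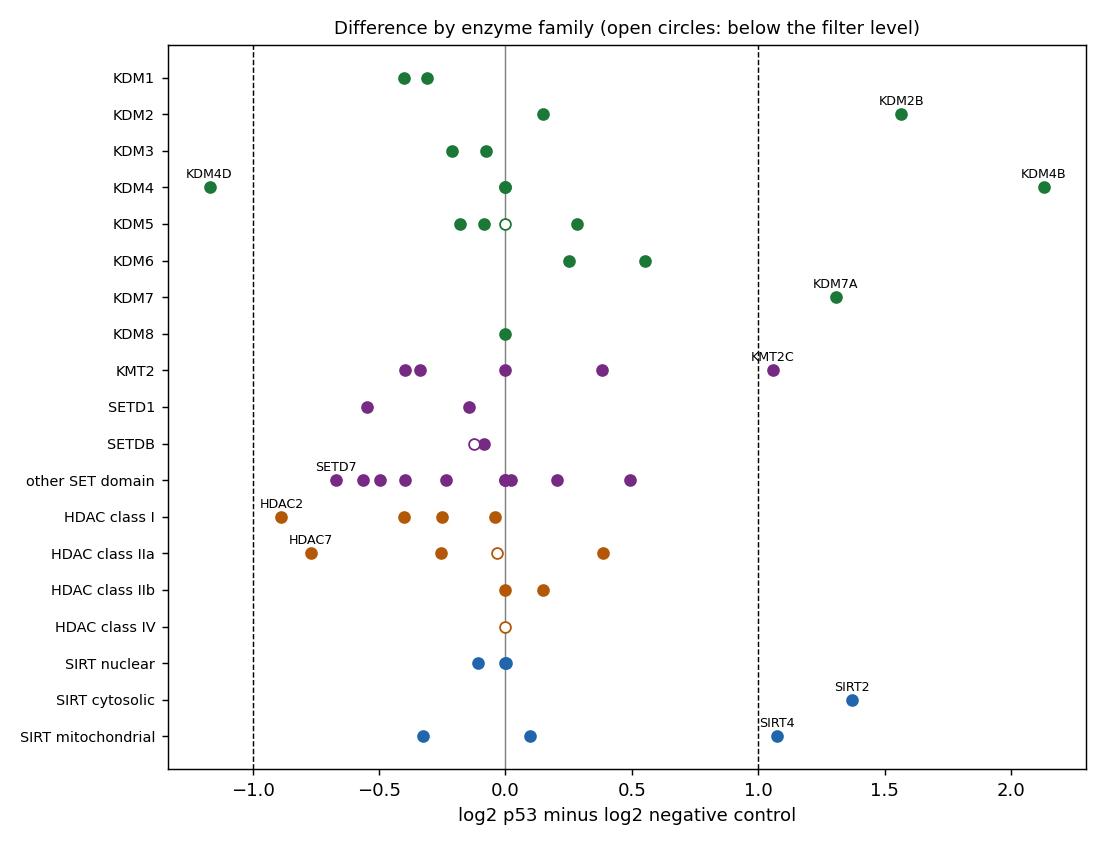
Difference in log2 intensity, p53 minus negative control, of each of the 55 member genes (circles, coloured by class and open where the gene lay below the filter), 1 row per family, with dashed lines at 2-fold. KDM4 spans -1.17 to 2.13, and no deacetylase lies past a dashed line. Of all kept genes 8.21% were called higher and 5.79% lower.

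Of 18 kept methyltransferase genes 1 was called higher (5.56%, where 8.21% of all kept genes were), none lower (where 5.79% were) and 17 neither. The KMT2 genes, formerly the MLL genes, encode large proteins, most of them H3K4 methyltransferases of the COMPASS family. KMT2C, which methylates H3K4 at enhancers, had 10.84 with p53, against 9.78 in the control, 2.08-fold higher and just past the line. Its paralogue KMT2D had 8.87 with p53, against 9.27 in the control, a difference of the opposite sign. KMT2A had 10.10 with p53, against 10.44 in the control, and a second probe set of this gene gave -0.09 in place of -0.34. KMT2B had 9.59 with p53, against 9.21 in the control. KMT2E was equal, at 10.03. The family thus had 2 higher values, 2 lower and 1 equal, and no common direction. SETD1A and SETD1B, which deposit most H3K4 trimethylation at promoters, did not pass 1.5-fold: SETD1B had 8.03 with p53, against 8.58 in the control, and SETD1A had 9.11 with p53, against 9.26 in the control.

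SETD7, a monomethylase of H3K4 and of many other proteins, had the lowest difference of the KMT and SETD genes. It had 9.11 with p53, against 9.78 in the control, 1.59-fold lower. SETD9 had 7.73 with p53, against 8.29 in the control, SETD6, which methylates the NF-kappaB subunit RelA, had 8.15 with p53, against 8.64 in the control, and SETD5 had 10.83 with p53, against 11.23 in the control. SETD2, the H3K36 trimethylase, differed by -0.23, and the H3K9 enzyme gene SETDB1 by -0.09. SETDB2 lay below the filter, and SETD3, whose known substrate is a histidine of actin, differed by 0.02. Of the H4K20 enzymes, KMT5B had 9.24 with p53, against 8.75 in the control, and KMT5C was equal, at 8.22. KMT5A, the H4K20 monomethylase, had 3 probe sets with differences of 0.21, 0.16 and -0.02. Several of them are annotated with shared transcripts, so that near-identical copies may be read together and the value of KMT5A is uncertain. Over the 18 kept genes 10 differences were below 0, 5 above and 3 equal, where of the 11436 kept genes 5781 were below 0, 3983 above and 1672 equal. The median was -0.13 over all 19 genes and -0.12 over the kept ones.

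None of the 9 kept deacetylase genes was called in either direction, where 8.21% of all kept genes were called higher and 5.79% lower. With 9 genes a count of 0 says little. Class I deacetylases are the nuclear catalytic subunits of the Sin3, NuRD, CoREST and NCoR complexes, apart from HDAC8. HDAC2 had 10.69 with p53, against 11.57 in the control, 1.85-fold lower, the largest difference of the class. HDAC1, its close paralogue and usual partner, had 11.42 with p53, against 11.46 in the control. HDAC8 had 9.69 with p53, against 10.09 in the control, and HDAC3, the subunit of NCoR complexes, had 10.53 with p53, against 10.78 in the control. Of these 4 HDAC2 alone passed 1.5-fold, where 15.5% of all kept genes were lower by that much, and HDAC1, at -0.04, was within the spread between probe sets of 1 gene given at the end. Class IIa enzymes shuttle between nucleus and cytoplasm and bind MEF2 factors. Among them HDAC7 had 8.68 with p53, against 9.45 in the control, 1.70-fold lower. HDAC5 had 8.86 with p53, against 8.48 in the control, and HDAC9 had 7.76 with p53, against 8.02 in the control. HDAC4 lay just under the filter, at 7.26 with p53 and 7.29 in the control. The class IIb genes HDAC6, of the tubulin deacetylase, and HDAC10, of a polyamine deacetylase, differed by -0.00 and 0.15, and HDAC11, of class IV, lay under the filter. The median over the 11 genes was -0.04, and -0.25 over the 9 kept.

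Of the 7 sirtuin genes, all kept, 2 were called higher (28.6%, where 8.21% of all kept genes were), none lower (5.79% of all kept genes) and 5 neither. With 7 genes these shares say little. With the filter on the mean of the arrays SIRT2 was the only sirtuin gene called, where 7.7% of all kept genes were called higher. SIRT2, which encodes a mainly cytosolic deacetylase of tubulin and, in mitosis, of H4K16, had 10.80 with p53, against 9.43 in the control, 2.58-fold higher, with both values well above the filter. SIRT4, a mitochondrial enzyme that restrains glutamate dehydrogenase, had 7.46 with p53, against 6.38 in the control, 2.11-fold higher. It passed the filter through the p53 array alone, and with the offset of 32 its difference was 0.85, less than 2-fold. The other mitochondrial sirtuins were SIRT3, the main mitochondrial deacetylase, with a difference of 0.10, and SIRT5, a desuccinylase, at 7.74 with p53 and 8.06 in the control. None of the nuclear sirtuin genes was called. SIRT1, which deacetylates p53, had 9.41 with p53, against 9.51 in the control. SIRT6, an H3K9 deacetylase, had 8.67 in each array, and SIRT7, a nucleolar enzyme, carried the same value, 7.90, in both arrays.

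Enzymes and partners outside these families were read from 5 related lists. The lists were written with earlier results of these data known, so that their shares describe these genes and test nothing. Of 16 kept histone lysine methyltransferase genes with other names, 3 were called lower (18.8%, where 5.79% of all kept genes were) and 1 higher (6.25%, where 8.21% were). SUV39H1, the H3K9 trimethylase of heterochromatin, had 7.28 with p53, against 8.97 in the control, 3.22-fold lower, and passed the filter through the control array alone. SUV39H2, its paralogue, had 8.42 with p53, against 9.96 in the control, 2.92-fold lower, and EZH2, the H3K27 enzyme of Polycomb, had 9.42 with p53, against 10.54 in the control, 2.16-fold lower. NSD1, an H3K36 dimethylase, had 10.83 with p53, against 9.35 in the control, 2.79-fold higher. None of 12 kept genes of other JmjC proteins was called, where 8.21% of all kept genes were called higher and 5.79% lower. RIOX2 (-0.90), RIOX1 (-0.79), TYW5 (0.79) and PHF2 (0.63) lay at the ends.

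Of 13 histone acetyltransferase genes, which oppose the deacetylases, 1 was called higher and 1 lower. Each is 7.69%, where 8.21% of all kept genes were called higher and 5.79% lower. KAT2B, the PCAF acetyltransferase, had 11.18 with p53, against 9.11 in the control, 4.19-fold higher. HAT1, which acetylates newly made H4, had 9.31 with p53, against 10.48 in the control, 2.24-fold lower. ATF2 (-0.78) and KAT7 (-0.60) followed. Among 15 subunits and partners of the COMPASS complexes, in which most KMT2 enzymes and the SETD1 enzymes work, PSIP1 (-1.27) was the only one called. That is 6.67% lower, where 5.79% of all kept genes were, and none higher, where 8.21% were. HCFC1 (-0.77), DPY30 (-0.71) and PAGR1 (-0.67) were next. Of 32 kept subunits of deacetylase and CoREST complexes, 1 was called higher and 1 lower, 3.12% each beside the same shares of all kept genes. PHF21A, a reader of unmethylated H3K4 that joins KDM1A in CoREST, had 10.59 with p53, against 9.35 in the control, and TBL1XR1, of the NCoR complex with HDAC3, had 9.26 with p53, against 10.67 in the control. SIN3A (-0.99) and DNTTIP1 (-0.80) lay short of the line. Medians of the 5 lists ran from -0.19 to -0.01 over all measured genes.

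**Figure D4:**
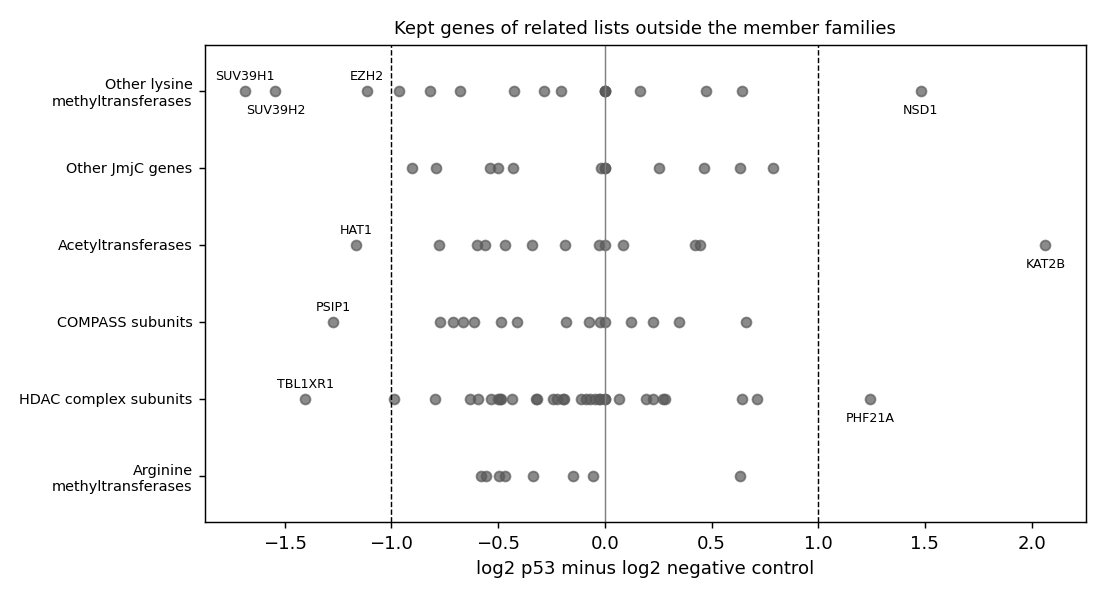
Difference in log2 intensity, p53 minus negative control, of kept genes in the 5 related lists and in the arginine methyltransferase list, 1 circle per gene, with dashed lines at 2-fold and names for genes past it. KAT2B (2.07) lies farthest right and SUV39H1 (-1.69) farthest left.

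The yardstick for these sizes comes from within the arrays. Where 2 probe sets of 1 gene with unlike values passed the filter (334 genes), the SD of a single probe set's difference, from the median absolute gap, was 0.084. Pairs in which each probe set was equal in both arrays were not left out, and any such pairs make this SD smaller. The kept genes as a whole had a spread of 0.43, estimated from their median absolute deviation, which includes changes with p53. Neither holds the variation between cultures or hybridisations, and many of the smaller differences above are below 0.43.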

How the data were processed

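Biotin-labelled total RNA of H1299 cells was read on Affymetrix arrays, per the labels' protocols. The authors deposited a log2 intensity for each probe set on each array, made with RMA, per the submitters' processing notes. Software versions, probe set definition and build were not given in the sources used here. That values are log2 was read from their range, 1.41 to 14.68. Sorted values of the arrays differed by at most 0.19, so a shift in total RNA cannot be seen. Intensities hold no counts, and the number of arrays limits the precision.

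Gene names came from GEO's annotation of the platform (19460 with 1 symbol, 1754 with several, 12083 with none in the table used), and symbols updated by gene identifier to RefSeq. No member carried an older MLL name. The probe set with the highest mean stood for a gene. Differences are p53 minus negative control. Members, lists and thresholds were chosen with earlier results of these data known. Named were all members, with both values for those past 1.5-fold and the largest of each class, up to 4 kept genes per list, and 2 label checks. The promoter of HDAC2, a gene short of 2-fold, was chosen after its values and its match were seen. The call procedure was tested on simulated data. Alternatives were other filters, thresholds of 1.5-fold and 3-fold, centring, lowess (span 0.3), quantile normalization, an offset of 32, a floor at the 25th percentile (5.97), other probe set rules and other membership. Python 3.11.15, numpy 2.4.6, pandas 2.3.3, statsmodels 0.14.6 and matplotlib 3.10.9 were used.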

Additional observations from a re-analysis of the deposited data

How the results depend on the processing

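The counts of 6 higher and 1 lower member were unchanged with no filter, centring, the lowess trend removed, the mean over probe sets, every probe set counted, quantile normalization, the floor, current symbols added (which added no member) and SETD3 and SETD6 left out. In these settings 5.22% to 8.74% of all kept genes or probe sets were called higher and 3.7% to 5.79% lower. The higher count was 4 of 29 kept members with the filter at the 75th percentile, where 11.8% of all kept genes were called higher. It was 5 of 49 with the filter on the mean of the arrays (7.7% of all kept genes) and 5 of 51 with the offset of 32 (7.31%). At 3-fold KDM4B alone was left, 1 of 51, where 3.93% of all kept genes were called higher. The lower count was 0 with the 75th percentile filter (7.78% of all kept genes), the mean filter (5.67%), the offset (4.71%) and 3-fold (1.53%). It was 4 of 51 at 1.5-fold, where 15.5% of all kept genes were lower. The call of KDM4D therefore depends on these choices. The class medians above are over all members. Over members kept by the 75th percentile filter, a smaller set of genes, they were 0.15 for KDM, -0.40 for HDAC and 0.10 for SIRT. That of HDAC was -0.25 over the genes kept by the mean filter and also over those kept by the filter used above, beside -0.04 over all members. The HDAC median thus depends on which genes are kept. The offset lowered the differences of KDM4B to 1.98, KDM2B to 1.44, KDM7A to 1.13 and SIRT4 to 0.85. No replicate could be left out, and no paired analysis was possible because each group has 1 array.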

Other observations

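Arginine methyltransferases, which modify histones H3 and H4 as well as RNA-binding proteins, were also read. The list of 10 genes also held WDR77, which encodes a partner of PRMT5 and not a methyltransferase. Of the 10 genes 8 were kept and none was called at 2-fold, where 8.21% of all kept genes were called higher and 5.79% lower. Of the 8 kept genes 7, WDR77 (-0.06) among them, differed by less than 0 and 1 by more, with a median of -0.40. Of the 11436 kept genes 5781 were below 0, 3983 above and 1672 equal. The median over all 10 was -0.32. PRMT2 had 7.95 with p53, against 8.53 in the control, and PRMT1, the main asymmetric enzyme, had 10.20 with p53, against 10.76 in the control. PRMT9 was the exception, at 8.46 with p53, against 7.83 in the control. These values describe 2 arrays, and no cause was tested.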
